A study of Oryza sativa with 6 samples.

Results

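The genes described here are the cyclins and the DNA replication genes of rice: every gene whose symbol or synonym in the rice gene annotation, with the Os prefix dropped, begins with CYC and a class letter or with MCM, ORC, RPA, RFC, PCNA, CDC6, CDT1, E2F or KRP. The annotation held 62 such genes. A probe set of their own was found for 55, and 53 were bright enough to be tested, out of 15040 genes tested on the array. They comprised 24 cyclins (3 of class A, 4 of class B, 9 of class D and 8 of other classes), 7 MCM, 5 ORC, 7 RPA and 5 RFC genes, PCNA and 4 KRP genes. The rule found no gene with a CDC6, CDT1 or E2F name. *CYCA3-1*, *CYCB1-5*, *CYCD2-1*, *CycT1;1*, *ORC6*, *KRP2* and *KRP3* had no probe set of their own in the pairing used here, and the signals of *CYCF2-2* (0.329 to 12.9 over the arrays) and *MCM8* (1.60 to 12.5) lay below the minimum for a test, a geometric mean of 20 over the arrays.

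The arrays compare stem bases of the *crl1* mutant, which forms no crown root primordia, with those of its wild type (WT), both *Oryza sativa* cultivar Taichung 65. Seedlings of both genotypes were 7 days old, grew upright on sterile agar with Murashige and Skoog medium at reduced strength and received no treatment. Each genotype has 3 arrays (GeneChip Rice Genome Array), each of RNA from a pool of 20 stem bases, and the arrays carry experiment numbers 1 to 3 in both genotypes. The values are MAS5 signals, a brightness per probe set on a linear scale. The sampled piece holds shoot tissue and, in WT, the zone of crown root primordia, and in such bulk RNA fewer cells of a type and less RNA per cell cannot be told apart.

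Cyclins activate cyclin-dependent kinases: D cyclins act at the entry into the cycle, A cyclins through DNA synthesis and B cyclins at mitosis, while KRP proteins inhibit these kinases. For replication, the origin recognition complex (ORC) marks the start sites and helps to load the MCM helicase, replication protein A (RPA) coats the single strands that the helicase exposes, and replication factor C (RFC) loads the ring-shaped clamp PCNA that holds the polymerase on DNA. Transcripts of many of these genes are abundant in dividing tissue such as meristems and young primordia, and low in tissue that has stopped dividing.

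The 6 arrays had median signals of 12.5 to 16.6, with replicate 3 of both genotypes lowest (12.7 in WT and 12.5 in *crl1*), and their highest signal was 5201 and 5761 in replicate 3 against 15946 to 18869 in the other 4. *OSH1*, a homeobox gene that marks the shoot meristem, had signals of 633 to 1223. Of the listed shoot meristem markers, 3 of 6 could be tested and none passed between the genotypes. *OSH1* and *OSH6* were higher in *crl1* in all 3 pairs (0.27 and 0.24 on the log2 scale), and *OSH71* was lower in all 3 (-0.18). The summed signal of the shoot meristem markers was 1418 to 1892 in WT and 1542 to 2130 in *crl1*. *OSH43* and *WOX4* lay below the minimum (*OSH43* at 2.15 to 2.65 in WT and 10.1 to 24.0 in *crl1*). Among root markers, 6 signals were tested and none passed (summed 1099 to 1387 in WT and 1019 to 1384 in *crl1*). *WOX11*, a regulator of crown root growth, came nearest at 0.71 on the log2 scale (standard error 0.15, limma adjusted p = 0.0867), with every *crl1* array above every WT array. *LSI2*, a silicon exporter of the root, lay the other way at -0.94 (limma adjusted p = 0.127), with every *crl1* array below every WT array. Of 10 leaf photosynthesis markers 3 were tested (summed 6592 to 10073 in WT and 5993 to 10086 in *crl1*) and 1 passed, *RCA*, the activase of the carbon-fixing enzyme, at -0.55 (limma adjusted p = 0.0429). *RBCS* lay at -0.24 and *CAB2R* at 0.07, and neither passed. Of 5 seed storage genes 2 were tested and none passed (summed 599 to 646 in WT and 559 to 612 in *crl1*). The leaf, root and seed sums each came mostly from 1 bright probe set, that of *CAB2R*, *LSI1* and *GLB1* (geometric mean signals of 6674, 828 and 530). The part of these array and marker differences in the results below was not tested.

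The first comparison, *crl1* against WT, asks whether the mutant stem base differs in the genes of the division machinery. None of the 53 genes passed the test, at a background of 0.651% of the 25045 probe sets tested (0.447% lower and 0.204% higher in *crl1*; limma with the replicate number as a block, adjusted p under 0.05). At an unadjusted limma p under 0.05 there were 4, all lower in *crl1*, which is 7.55% of the genes beside 9.76% of all probe sets in either direction and 4.9% of them that were lower. The 4 were *RPA32*, *RPA70B*, *CYCP4-1* and *CYCD5-1*. A log2 fold change below 0 was found for 34 of 53 (64.2%, against 49.3% of all probe sets and 52.1% of the 15040 genes tested). The median was -0.04 (quartiles -0.13 and 0.03, range -0.62 to 0.37), and that of all probe sets tested was 0.00344. By the ratio rule of the study's methods, over 2 or under 0.5 in all 3 replicate pairs and here joined to a limma p, before adjustment, of at most 0.01, 0 of 53 passed (0.176% of all probe sets lower and 0.0519% higher).

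The precision reached for single genes is seen in their intervals. The 95% interval of the log2 fold change lay wholly within 2-fold of no difference for 52 of the 53, the exception being *CYCP4-1*. It lay within 1.5-fold for 44. For all probe sets tested these shares were 90.4 and 62.1%. Those include dimmer second probe sets of a gene, so that they are no like measure for the members. The median standard error was 0.129 over the 53 and 0.149 over all probe sets. Over the brightest probe set of each gene tested it was 0.130.

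**Figure D1:**
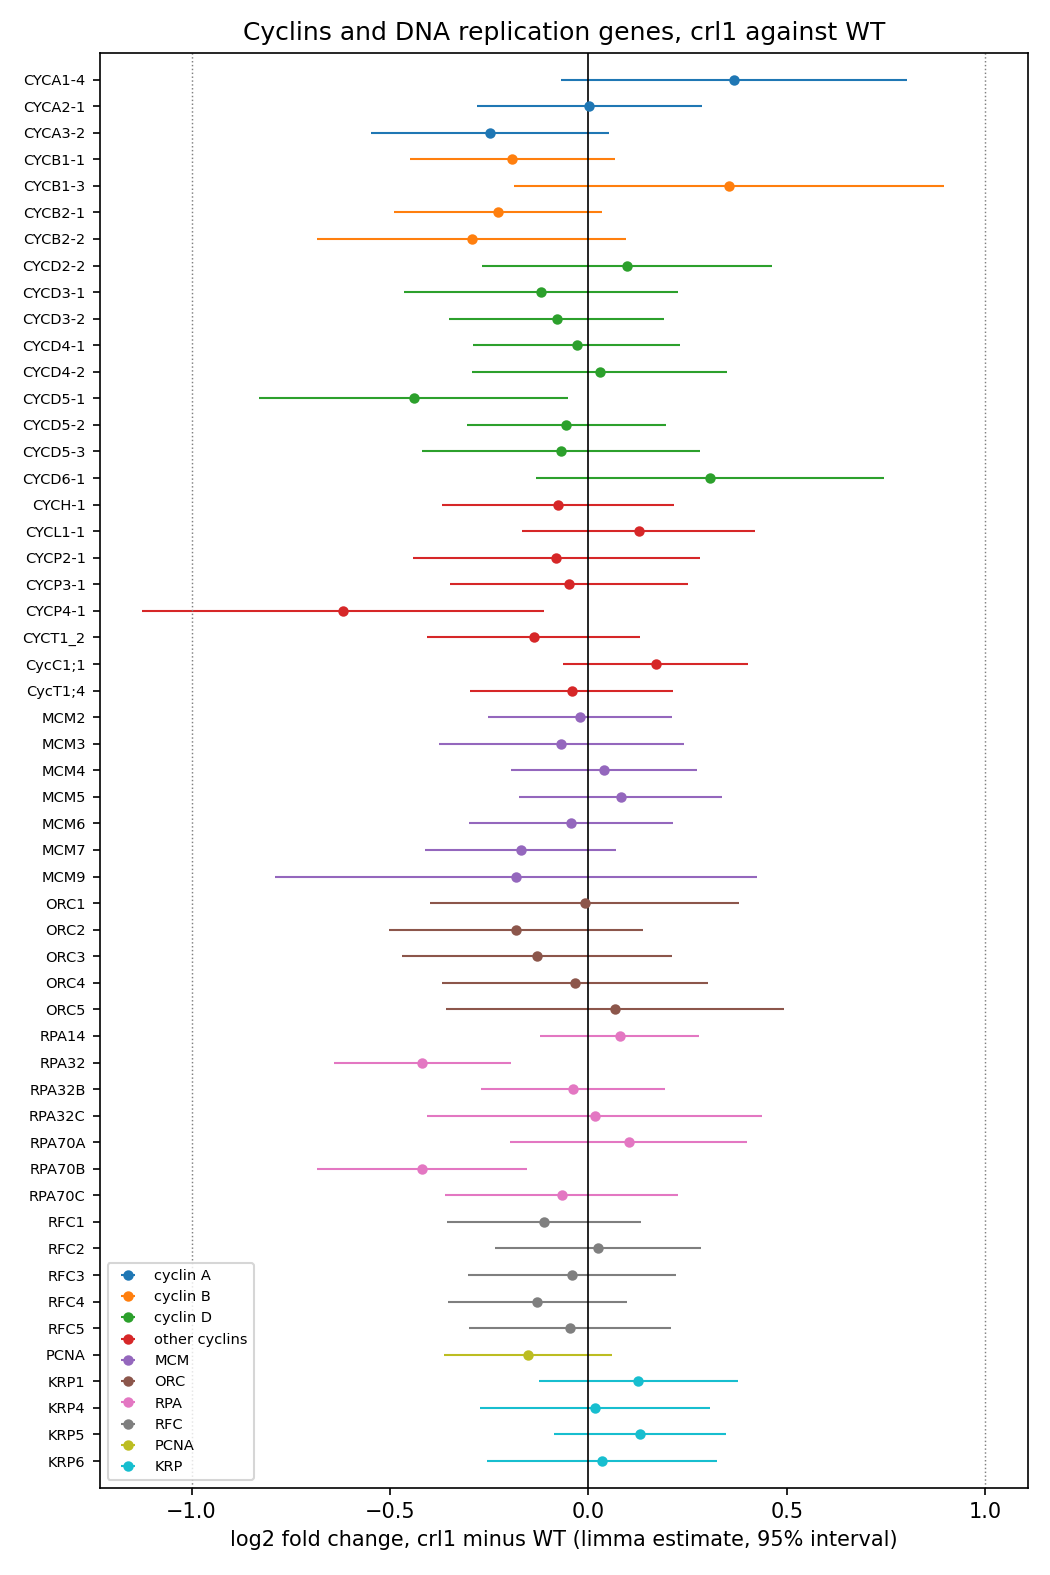
Log2 fold change of *crl1* against WT (x axis, limma estimate) for each of the 53 tested cyclins and replication genes, with its 95% interval as a bar, coloured by family; dotted lines mark a 2-fold difference. RPA32, RPA70B, CYCP4-1 and CYCD5-1 are the 4 genes whose interval lies wholly below 0, and none lies wholly above 0.

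Replication protein A is a trimer of a large (RPA70), a middle (RPA32) and a small (RPA14) subunit, and rice carries several genes for the 2 larger ones. Per-array signals are given throughout in the order of replicates 1, 2 and 3. *RPA32* (LOC4331236), a middle subunit, had signals of 525, 561 and 486 in WT and 368, 469.5 and 347 in *crl1*. Every *crl1* array was below every WT array, and the *crl1* to WT ratio was 0.701, 0.837 and 0.714 in the 3 pairs. The log2 fold change was -0.42 (standard error 0.10, 95% interval -0.64 to -0.20, unadjusted p = 0.00207, limma adjusted p = 0.133), the smallest p of the 53 genes.

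*RPA70B* (LOC4332052), a large subunit, had signals of 582, 526 and 504 in WT and 399.7, 490.2 and 329 in *crl1*. Its groups did not overlap either, but replicate 2 of *crl1* came close to the lowest WT array, with a ratio of 0.932 in that pair against 0.686 and 0.653 in the others. The log2 fold change was -0.42 (standard error 0.12, 95% interval -0.68 to -0.15, limma adjusted p = 0.226). Without replicate 2 it was -0.58 and passed (limma adjusted p = 0.0467, and from 0.0467 to 1.00 over the alternatives), the one call of a member in any alternative of this comparison.

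In the other 5 RPA genes the genotypes overlapped. *RPA14* (LOC4327706), the small subunit and the brightest probe set of the family, brightness being a property of the probe set and no measure of transcript abundance between genes, had 699, 764 and 701 in WT and 786, 808 and 695 in *crl1* and a log2 fold change of 0.08 (95% interval -0.12 to 0.28). The second middle subunit, *RPA32B*, gave 339, 422 and 393 in WT and 372, 382 and 365 in *crl1* (-0.04, 95% interval -0.27 to 0.19). *RPA70A*, a large subunit, gave 125, 141 and 132 against 147, 157 and 125 (0.10, 95% interval -0.20 to 0.40). The intervals of these 3 genes lie within 1.5-fold of no difference. *RPA32C* and *RPA70C* had log2 fold changes of 0.02 and -0.07. In pair 3 all 7 RPA genes were lower in *crl1*, beside 71.7% of the 53 genes and 51.9% of all probe sets. In pairs 1 and 2 this held for 3 of 7 each. The shares there were 67.9 and 35.8% of the 53 genes and 49.9 and 47.3% of all probe sets. No test of one RPA gene against another was made.

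**Figure D2:**
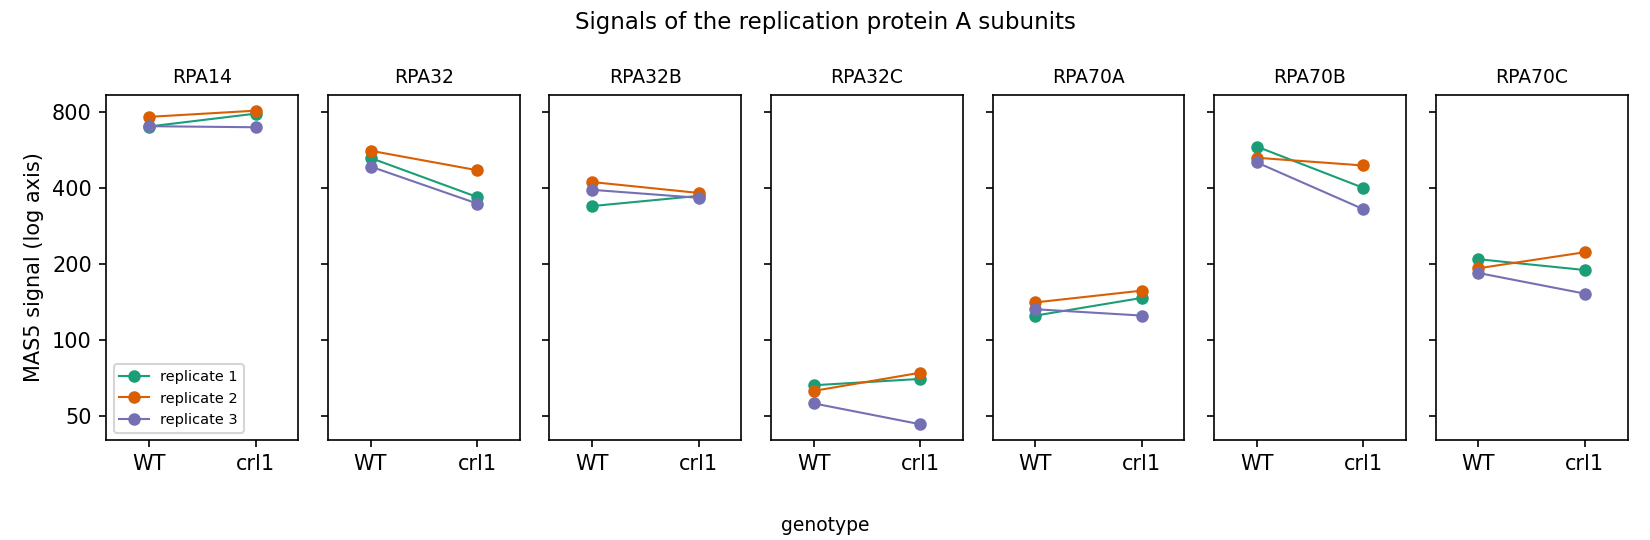
MAS5 signal (y axis, log scale) of the 7 replication protein A genes in WT and *crl1*, 1 panel per gene, lines joining arrays of 1 replicate number; heights are not compared between panels. In RPA32 and RPA70B all 3 lines run downwards and the 3 *crl1* points lie below the 3 WT points, and in the other 5 genes the points of the genotypes overlap.

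PCNA, the sliding clamp, had the brightest of the 53 probe sets. *PCNA* (LOC4331062) had signals of 1615, 1809.8 and 1178 in WT and 1278, 1829.6 and 1073 in *crl1*. The groups overlapped, replicate 2 was the highest and replicate 3 the lowest array of each genotype, and the log2 fold change was -0.15 (standard error 0.09, 95% interval -0.36 to 0.06, limma adjusted p = 0.673). Among the clamp loader genes, *RFC4* (LOC4336704) had 373, 394 and 375 in WT and 372, 356 and 319 in *crl1*. Its groups were apart, but by a margin that was small beside the spread within *crl1*, and the log2 fold change was -0.13 (standard error 0.10, limma adjusted p = 0.752). The other 4 loader subunits, *RFC1*, *RFC2*, *RFC3* and *RFC5*, had log2 fold changes of -0.11 to 0.02 with overlapping groups. All 5 were lower in *crl1* in pair 1, 2 of 5 in pair 2 and 4 of 5 in pair 3. Among all probe sets 49.9, 47.3 and 51.9% were lower in these pairs. Over all 53 genes, the *crl1* arrays were all below the WT arrays in *RPA32*, *RPA70B* and *RFC4* (5.66%, against 3.64% of all probe sets), and above them in 0 (3.65% of all probe sets).

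The MCM genes, which encode the helicase subunits, were close to level between the genotypes. *MCM2* (LOC4350526), the brightest, had 648, 607 and 443 in WT and 578, 698 and 413 in *crl1*. The ranges of the genotypes overlapped almost wholly, with replicate 3 lowest in each, and the log2 fold change was -0.02 (95% interval -0.25 to 0.21). *MCM7* (LOC4352514) had 251, 311 and 213 in WT and 209, 286 and 195 in *crl1*, lower in *crl1* in all 3 pairs by ratios of 0.832, 0.919 and 0.916 though the groups overlapped (-0.17, standard error 0.11, limma adjusted p = 0.675). *MCM3*, *MCM4*, *MCM5* and *MCM6*, the remaining subunits of the hexamer, lay between -0.07 and 0.08. *MCM9*, which in animals acts in the repair of DNA rather than in the hexamer, had the weakest signals of the family (33.6 to 56.9) and the widest interval (-0.79 to 0.43).

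The 5 ORC genes had weak to middling signals (48.4 to 169 over the arrays) and log2 fold changes of -0.18 to 0.07. *ORC2* (LOC4331860) had 169, 121 and 130.0 in WT and 124, 123 and 119 in *crl1*. The WT mean rested on replicate 1, the other WT arrays lying within or beside the *crl1* range, and the log2 fold change was -0.18 (standard error 0.14, limma adjusted p = 0.75). *ORC1* (LOC4340349) spread most, with 109, 120.2 and 90.0 in WT and 99.6, 162 and 71.8 in *crl1*. The *crl1* arrays held both the highest and the lowest value (-0.01, 95% interval -0.40 to 0.38). *ORC3*, *ORC4* and *ORC5* lay at -0.13, -0.03 and 0.07, and a dimmer probe set of *ORC4* gave 0.16 (standard error 0.21). The locus called *ORC5* here also carries an *ORC1* synonym in the annotation.

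Of the mitotic B cyclins, 3 of 4 had negative log2 fold changes and none passed. *CYCB1-1* (LOC4327547) had 851, 851 and 686 in WT and 638, 932 and 560.4 in *crl1*. Replicate 2 of *crl1* was the highest array of all and replicates 1 and 3 of *crl1* the lowest (-0.19, standard error 0.11, limma adjusted p = 0.657). *CYCB2-2* (LOC4342121) was likewise lower in *crl1* in pairs 1 and 3 and higher in pair 2, with 933, 674 and 620.3 in WT and 516, 809 and 507 in *crl1* and ratios of 0.553, 1.20 and 0.817. Its log2 fold change was -0.29 (standard error 0.17, limma adjusted p = 0.649), and a dimmer probe set of the gene gave -0.30 (standard error 0.12, limma adjusted p = 0.467). The estimate was -0.0136 without replicate 1 and -0.57 without replicate 2. *CYCB2-1* (LOC4336670) was lower in *crl1* in all 3 pairs, with 339, 331 and 295 in WT and 303, 321 and 212 in *crl1*, but the groups overlapped (-0.23, standard error 0.12, limma adjusted p = 0.586).

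*CYCB1-3* (LOC4326914), the weakest of the B cyclins and also listed under a *CYCB1-1* synonym, went the other way in its estimate. It had 47.1, 31.7 and 55.6 in WT and 49.7, 62.0 and 56.2 in *crl1*, higher in *crl1* in all 3 pairs but by a ratio of 1.06, 1.96 and 1.01, so that the estimate of 0.35 (standard error 0.24, limma adjusted p = 0.698) came from the second pair.

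Of the A cyclins, *CYCA2-1* (LOC4352280), the brightest, had 354, 336 and 288 in WT and 317, 426 and 255 in *crl1*, with WT inside the *crl1* range and an estimate of 0.00203 on the log2 scale (95% interval -0.28 to 0.29). *CYCA3-2* (LOC4352642) had 137, 150.3 and 135 in WT and 104, 139 and 114 in *crl1*. It was lower in every pair, and only replicate 2 of *crl1* reached the WT range (-0.25, standard error 0.13, limma adjusted p = 0.612). *CYCA1-4* (LOC4338177) was higher in *crl1* in every pair, with 85.7, 39.0 and 57.7 in WT and 101, 66.4 and 61.5 in *crl1*. Its spread within WT was larger than the difference (0.37, standard error 0.19, limma adjusted p = 0.603), and this was the highest estimate of the 53 genes.

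The 9 D cyclins tested, regulators of the entry into the cycle, had log2 fold changes of -0.44 to 0.31, 6 of them below 0. *CYCD5-1* (LOC4333455) had 137, 160.2 and 149.8 in WT and 142, 104 and 88.8 in *crl1*. Replicates 2 and 3 of *crl1* lay below all WT arrays and replicate 1 within them, with ratios of 1.04, 0.649 and 0.593 (-0.44, standard error 0.17, unadjusted p = 0.0308, limma adjusted p = 0.446). *CYCD6-1* (LOC4343569), of the class that in *Arabidopsis* acts in divisions of the root ground tissue, had 68.0, 48.1 and 84.2 in WT and 85.6, 78.2 and 77.9 in *crl1*. The *crl1* arrays lay close together at the upper end of the WT spread (0.31, standard error 0.19, limma adjusted p = 0.679). *CYCD3-2* (LOC4346394), the brightest of the class, had 291, 288 and 239 in WT and 281, 316 and 190.3 in *crl1* (-0.08, 95% interval -0.35 to 0.19). The other 6, *CYCD2-2*, *CYCD3-1*, *CYCD4-1*, *CYCD4-2*, *CYCD5-2* and *CYCD5-3*, lay between -0.12 and 0.10.

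The other cyclins act partly outside the division cycle. *CYCP4-1* (LOC4349405), of the P class that resembles the yeast phosphate regulator PHO80, had 119, 139 and 206 in WT and 47.5, 143 and 139 in *crl1*. The lowest array was replicate 1 of *crl1* and the highest replicate 3 of WT, while the second pair was level, with ratios of 0.398, 1.03 and 0.676. Its log2 fold change of -0.62 was the lowest of the 53 genes, with a standard error of 0.23 (unadjusted p = 0.0220, limma adjusted p = 0.401). It ranged from -0.95 without replicate 2 to -0.26 without replicate 1.

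*CycC1;1* (LOC9272663), a cyclin of the kinase module of the Mediator complex, was the brightest of these classes, with 780.4, 766 and 874 in WT and 996, 725 and 1027 in *crl1*. It was higher in pairs 1 and 3 and lower in pair 2 (0.17, standard error 0.10, limma adjusted p = 0.665). A dimmer probe set of the gene gave 0.07 (standard error 0.09). *CYCH-1*, of the kinase that activates other cyclin-dependent kinases, *CYCL1-1*, of the splicing machinery, the T cyclins *CYCT1_2* and *CycT1;4*, of transcript elongation, and the P cyclins *CYCP2-1* and *CYCP3-1* had log2 fold changes of -0.14 to 0.13.

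The 4 KRP inhibitors had positive estimates of 0.02 to 0.13. *KRP5* (LOC4331554), the brightest, had 403, 414 and 387 in WT and 451, 479 and 392 in *crl1*. It was higher in *crl1* in each pair, by a margin within the spread of the *crl1* arrays (0.13, standard error 0.10, limma adjusted p = 0.737). *KRP1* was also higher in each pair (0.13, 95% interval -0.12 to 0.38), and *KRP4* and *KRP6* lay at 0.02 and 0.03. With its probe sets averaged, a dimmer one below the signal minimum included, *KRP6* was at 0.48 (standard error 0.25) and did not pass.

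The 3 replicate pairs did not run alike. The median log2 ratio of *crl1* to WT over the 53 genes was -0.13 in pair 1, 0.10 in pair 2 and -0.11 in pair 3. All probe sets tested had medians of 0.000877, 0.02 and -0.0119 in the same pairs. In pair 1 36 of 53 genes were lower in *crl1* (67.9%, against 49.9% of all probe sets), in pair 2 19 (35.8 against 47.3%) and in pair 3 38 (71.7 against 51.9%). The turn in pair 2 was found in the family medians of the A cyclins (-0.16, 0.34 and -0.18), the B cyclins (-0.29, 0.20 and -0.29), the D cyclins (-0.05, 0.17 and -0.21), the MCM genes (-0.16, 0.14 and -0.10) the ORC genes (-0.13, 0.12 and -0.13) and, barely, the RFC genes (-0.17, 0.00905 and -0.08), and not in those of the cyclins outside classes A, B and D (-0.19, -0.09 and -0.00135), of the RPA genes (0.08, 0.08 and -0.27) or of the KRP genes (-0.00717, 0.10 and 0.07). A gene was lower in *crl1* in all 3 pairs in 6 cases (11.3%, against 15.2% of all probe sets) and higher in 4 (7.55 against 16%). The first set was *CYCA3-2*, *CYCB2-1*, *MCM7*, *RPA32*, *RPA70B* and *RFC4*, the second *CYCA1-4*, *CYCB1-3*, *KRP1* and *KRP5*.

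**Figure D3:**
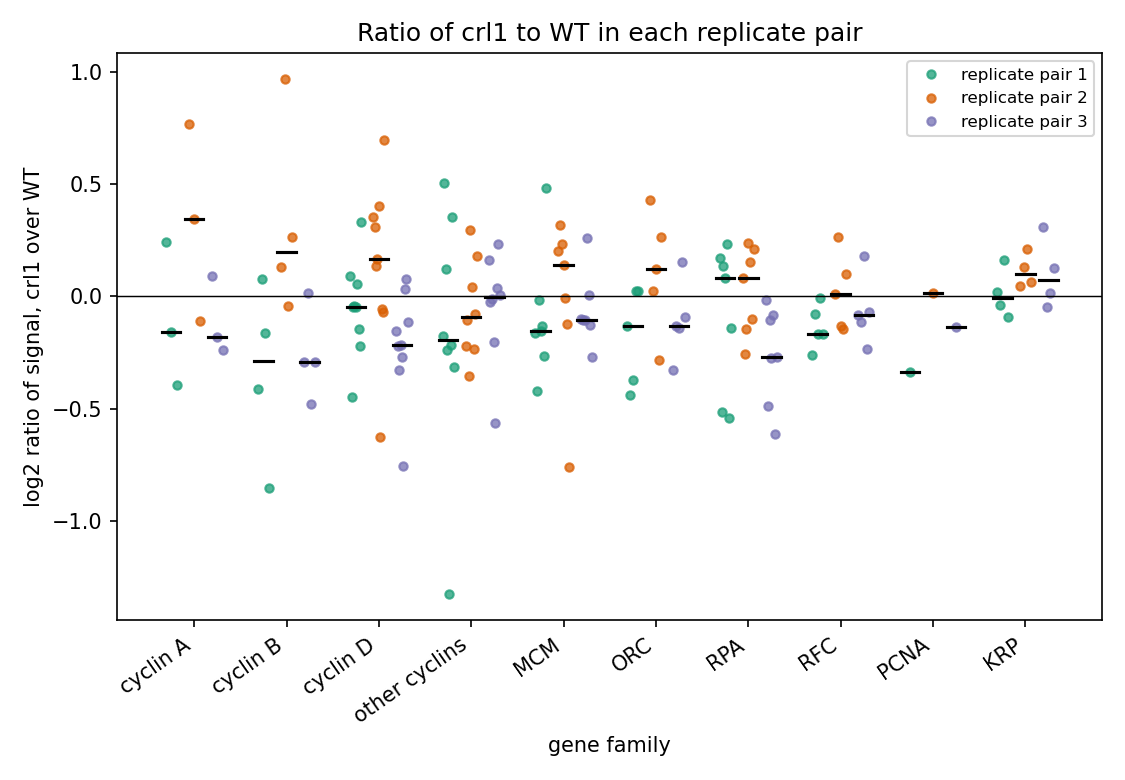
Log2 ratio of *crl1* to WT (y axis) in each of the 3 replicate pairs for the 53 tested genes, by family (x axis); each point is a gene and each bar the family median. The medians of the B cyclins lie at -0.29, 0.20 and -0.29 in pairs 1, 2 and 3, and those of the MCM genes at -0.16, 0.14 and -0.10.

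The excess of negative estimates varied with the replicate left out. Without replicate 1, 26 of 53 genes were negative (49.1%, equal to the share of all probe sets) and the median was 0.000134. Without replicate 2, 37 were negative (69.8%, against 50.9% of all probe sets) with a median of -0.10. Without replicate 3, 30 were negative (56.6 against 48.3%) with a median of -0.03.

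Other genes of the cell cycle and of replication, listed by name from the same annotation, were 28, of which 22 could be tested. Of these 22, 1 passed between the genotypes, beside 0.651% of all probe sets. *CKS1* (LOC4331610), a small subunit that docks on cyclin-dependent kinases, had 1082, 1148 and 689.7 in WT and 614, 584 and 379 in *crl1*. The genotypes did not overlap and the ratio was 0.568, 0.509 and 0.55 in the 3 pairs, so that *CKS1* fell by 0.88 on the log2 scale (standard error 0.09, limma adjusted p = 0.00475). Its adjusted p passed neither without the replicate block nor without the mean-variance trend. In these settings 5 and 0 of all 25045 probe sets passed, so that the loss was not particular to *CKS1*.

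The kinases that bind the cyclins did not pass. *CDKB2-1*, the mitotic kinase of plants, came nearest, with 654, 598 and 552 in WT and 542, 543 and 438 in *crl1*, every *crl1* array below every WT array (-0.25, standard error 0.09, unadjusted p = 0.0246, limma adjusted p = 0.415). *CDC2-1* and *CDC2-2*, the A-type kinases, lay at -0.06 and -0.17. *CDKC-1* and *CDKG-2* went the other way, at 0.23 and 0.15, higher in *crl1* in all 3 pairs. Of the 22 genes 2 were higher in all 3 pairs and 7 lower (16 and 15.2% of all probe sets). The retinoblastoma-related genes *RBR1* and *RBR2*, which hold back the entry into the cycle, lay at -0.10 and -0.05, and the polymerase delta subunits *POLD1* and *POLD2* at 0.13 and -0.14. Over the 22 genes 17 had a negative log2 fold change, against 49.3% of all probe sets. Their median was -0.07, against 0.00344 over all probe sets. The *crl1* arrays were all below the WT arrays in 3 of the 22 (3.64% of all probe sets) and above them in 0 (3.65%).

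The second comparison, replicate 3 against the mean of replicates 1 and 2 over both genotypes, contrasts experiments and not a treatment. The labels say only that the numbers are experiments. Of the 53 genes 13 passed (24.5%, limma adjusted p under 0.05), against 24.3% of all probe sets and 27.3% of all genes tested. The count as such thus stands near the background. The directions were uneven: 11 were lower in replicate 3 (20.8%, against 12.6%) and 2 higher (3.77 against 11.7%). A difference below 0 was found for 42 of 53 (79.2%, against 53.2%), and the median was -0.23 against -0.03 over all probe sets. The lower array median and highest signal of replicate 3 given above move with this contrast. The tested markers of leaf photosynthesis went both ways in it. *RCA* rose by 1.60 and *RBCS* by 0.77 on the log2 scale, and *CAB2R* fell by 1.11 (limma adjusted p = 2.03e-05, 0.00115 and 9.92e-05). The summed leaf signal was 6592 and 5993 in replicate 3 against 8871 to 10086 in the other arrays. Most of that sum was *CAB2R* (3934 and 4074 against 7927 to 9305), so that it followed this 1 gene. Of the shoot meristem markers *OSH1* fell by 0.53 (limma adjusted p = 0.00335), and *OSH6* and *OSH71* lay at -0.07 and -0.11. Their part in the contrast was not tested.

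**Figure D4:**
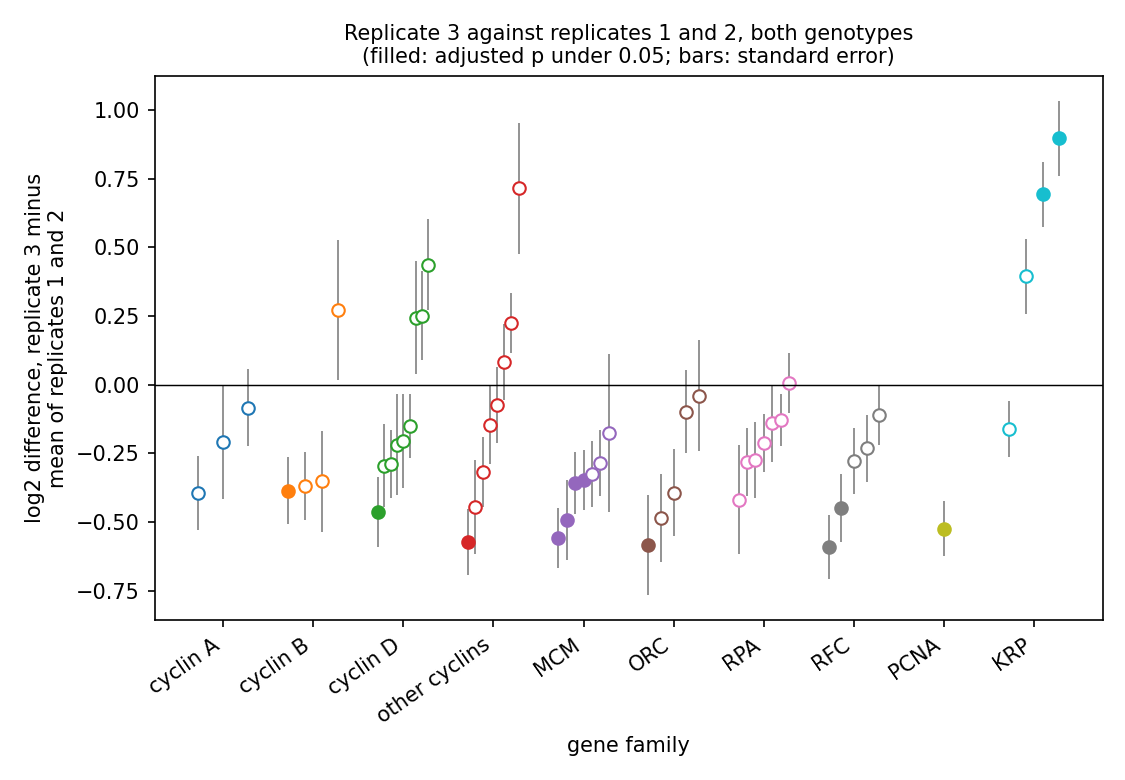
Log2 signal of replicate 3 minus the mean of replicates 1 and 2, both genotypes together (y axis), for the 53 tested genes by family (x axis); bars are standard errors and filled points passed at a limma adjusted p under 0.05. All 7 MCM, 5 ORC and 5 RFC genes lie below 0, and 3 of the 4 KRP genes lie above 0.

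The genes that fell in replicate 3 came from most of the replication machinery. *PCNA* had 1178 and 1073 in replicate 3 of WT and *crl1* and at least 1278 in the other arrays, and it fell by 0.52 (standard error 0.10, limma adjusted p = 0.00528). *MCM2*, with 443 and 413 in replicate 3 against at least 578 elsewhere, fell by 0.56 (standard error 0.11, limma adjusted p = 0.00581). *RFC1*, the large subunit of the clamp loader, had 362, 283 and 209 in WT and 302, 284 and 197 in *crl1*. In each of these 3 genes both arrays of replicate 3 were below the other 4, and *RFC1* fell by 0.59 (standard error 0.12, limma adjusted p = 0.00581).

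*MCM3*, *MCM4* and *MCM7* also fell, by 0.49, 0.35 and 0.36 (limma adjusted p = 0.0361, 0.0474 and 0.0473), as did *RFC3* by 0.45 (limma adjusted p = 0.0271) and *ORC1* by 0.58 (standard error 0.18, limma adjusted p = 0.0456). The last of these rested more on *crl1*, where replicate 3 lay 0.82 below the other arrays, than on WT, where it lay 0.35 below, a difference that was not tested. As families, 7 of 7 MCM genes (median -0.35), 5 of 5 ORC genes (-0.39), 5 of 5 RFC genes (-0.28) and 6 of 7 RPA genes (-0.21) had negative differences, and no RPA gene passed. Under quantile normalization and median centring the direction of every family median was as here, and the RPA count became 7 of 7.

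Among the cyclins 3 fell in replicate 3. *CYCB1-1* fell by 0.39 (limma adjusted p = 0.0465) and *CYCD3-2* by 0.46 (limma adjusted p = 0.0272). *CycT1;4* (LOC4352229), a T cyclin of transcript elongation, had 597, 509 and 362 in WT and 479.8, 577 and 363 in *crl1*, replicate 3 being the lowest by a wide margin in both, and it fell by 0.57 (standard error 0.12, limma adjusted p = 0.00828). The A cyclins were negative in 3 of 3 (median -0.21), the B cyclins in 3 of 4 (-0.36), the D cyclins in 6 of 9 (-0.21) and the other classes in 5 of 8 (-0.11). *CYCP4-1* had the largest positive difference of the cyclins, 0.72, which did not pass (standard error 0.24, limma adjusted p = 0.0563).

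The 2 genes that rose in replicate 3 were both KRP inhibitors, of 4 tested. *KRP6* (LOC4347280) had 101, 122 and 197 in WT and 94.8, 128 and 215 in *crl1*, and rose in replicate 3 by 0.90 (standard error 0.14, limma adjusted p = 0.00162). *KRP1* (LOC4330816) had 216, 222 and 322 in WT and 219.8, 229 and 399 in *crl1*, and rose by 0.69 (standard error 0.12, limma adjusted p = 0.00299). In both, the 2 arrays of replicate 3 stood above the other 4. The *crl1* to WT ratio in pairs 1, 2 and 3 was 0.939, 1.05 and 1.09 for *KRP6* and 1.02, 1.03 and 1.24 for *KRP1*. *KRP4*, with 132, 110.2 and 164 in WT and 129, 121 and 159 in *crl1*, also had replicate 3 highest, at 0.39, but did not pass (standard error 0.14, limma adjusted p = 0.064). *KRP5* did not pass either and lay at -0.16, with both arrays of replicate 3 below the other 4.

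Counted by array, both replicate 3 arrays were below the other 4 in 23 of 53 genes (43.4%, against 22.9% of all probe sets) and above them in 4 (7.55 against 19.2%), which were *KRP1*, *KRP4*, *KRP6* and *CYCD5-3*. Replicate 3 was lower in both genotypes in 39 of 53 (73.6%, against 41.4%). The median difference was -0.14 in WT and -0.28 in *crl1*, against -0.02 and -0.04 over all probe sets. Whether the genotypes differed in this was not tested. Of the 22 other cell cycle genes 6 passed in this contrast, beside 24.3% of all probe sets. *POLD1*, *RBR1*, *CKS1* and *TOP6B* fell in replicate 3, by 0.97, 0.80, 0.68 and 0.51 (limma adjusted p = 0.00111, 0.0056, 0.00103 and 0.036), and *TOP6A* and *TOP6A2*, of the topoisomerase VI family, rose by 0.85 and 0.78 (limma adjusted p = 0.00286 and 0.0284).

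**Figure D5:**
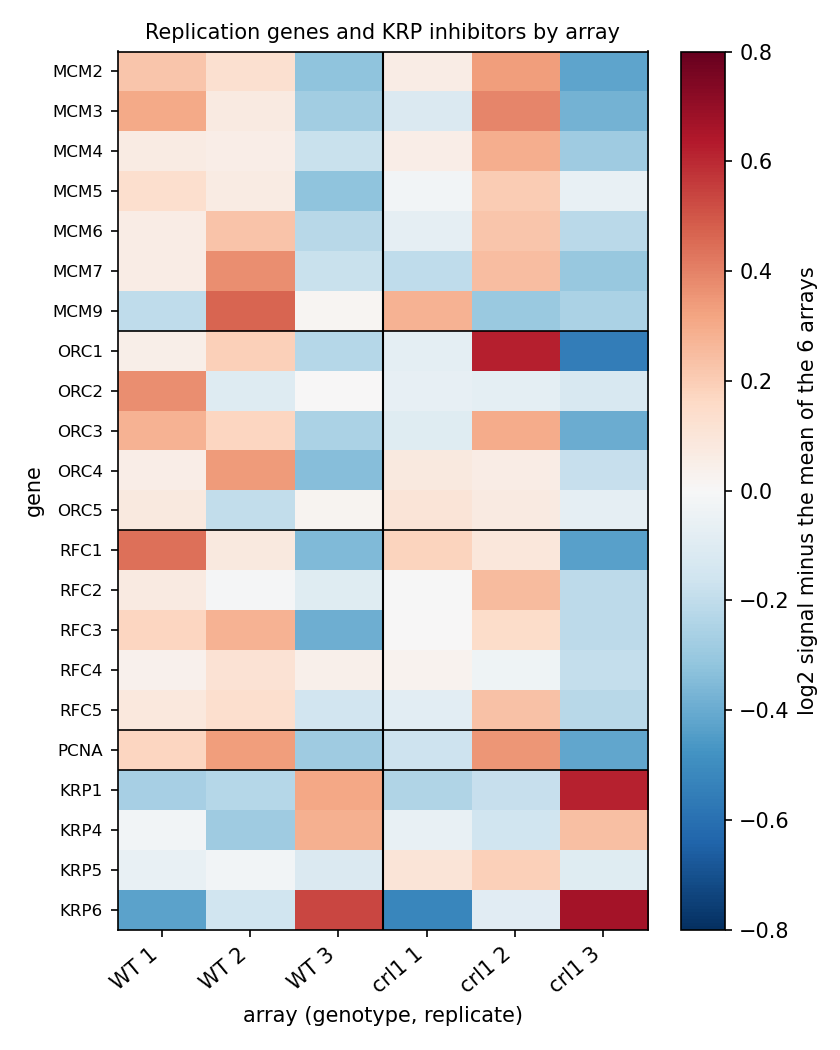
Log2 signal of each array minus the mean of the 6 arrays (colour) for the tested MCM, ORC, RFC, PCNA and KRP genes (rows) in WT and *crl1* replicates 1 to 3 (columns). The replicate 3 columns of both genotypes are mostly blue over the replication genes and red over KRP1, KRP4 and KRP6, and *crl1* replicate 2 is red over MCM2 to MCM7 and PCNA.

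The count of 13 depended on the variance model. Without the mean-variance trend 3 genes passed, *RFC1*, *KRP1* and *KRP6*, while 3140 of all 25045 probe sets passed in place of 6077. These 3 passed in all 8 alternatives that kept the brightest probe set and replicate 3, and with averaged probe sets 8 genes passed, 7 of them lower in replicate 3, so that at most 1 of *KRP1* and *KRP6* was among them. Without replicate 2, *CYCB1-1*, *MCM4*, *MCM7*, *ORC1* and *RFC3* no longer passed, and *MCM7* moved from -0.36 to -0.17.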

How the data were processed

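Total RNA of 6 pools of stem bases, 200 ng each, was amplified, labelled with biotin and hybridised by the authors. Each probe set has 1 deposited intensity per array, the MAS5 signal, which the authors computed with the Expression Console of Affymetrix at its default settings and scaled globally to a target of 100. Neither version is given in the sources used here. A trimmed mean with 2% of values left out at each end was 100.0 on each array. Detection calls and MAS5 change p-values are not used here. Arrays have no read depth, and their number, 3 per genotype, limits the precision.

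Of 57381 probe sets 123 are controls and were left out. A probe table, whose annotation may be old, paired 22436 of the rest with 1 gene, 95 with several and 34727 with none, and RefSeq's rice gene table gave symbols and synonyms. All members carry locus numbers as symbols, so that each was found through a synonym. The brightest probe set stood for a gene. The members, the lists of other cell cycle genes and of tissue markers and the rules were chosen with earlier results of these data known. Named array by array are the 14 members with the smallest p, the brightest of each family and those with the largest replicate 3 difference among those that passed there, up to 4 per direction; further members are named by their estimate, and the sets of genes lower or higher in all pairs were named after their values were seen.

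No pseudocount was added before log2, and the 25045 probe sets with a geometric mean of at least 20 were tested in limma (version 3.58.1, under R 4.3.3 with data.table, version 1.17.8) by lmFit and eBayes with a trend (prior degrees of freedom 7.33), blocked by replicate number, since the study's methods compare the genotypes within each replicate. The values pair by number too: what an array differs by from the mean of its genotype correlated between WT and *crl1* at 0.39, 0.451 and 0.747 for numbers 1, 2 and 3, and at 0.232 or less otherwise. P-values were Benjamini-Hochberg adjusted over all probe sets tested, with a threshold of 0.05, and the same fit gave the contrast of replicate 3 with the mean of replicates 1 and 2. The fit was tested on simulated data. As alternatives the block or the trend was dropped, the signal minimum was lifted or set to 50, a pseudocount of 16 was added, arrays were quantile normalized or centred on their medians, each replicate pair was left out, a gene's probe sets were averaged, and probe sets named _x_at or _s_at, which can cross-hybridise, were removed. Promoter sequences are not used here. Figures were drawn with Python 3.11.15, pandas 2.3.3, numpy 2.4.6 and matplotlib 3.10.9.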

Additional observations from a re-analysis of the deposited data

How the results depend on the processing

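Between the genotypes no member passed when the signal minimum was lifted (0 of 55) or raised to 50 (0 of 51), or with averaged probe sets (0 of 52). The count was 0 of 53 with the pseudocount, after quantile normalization, after median centring and without the probe sets that can cross-hybridise. Without the trend it was 0 of 53 too. There 0 of all 25045 probe sets passed, so that this setting could not tell the members from the rest. Leaving out a replicate gave 0 to 1, the 1 being *RPA70B* without replicate 2. Without the replicate block the count was 0 as well, with 2 members at an unadjusted limma p under 0.05, while 5 of all probe sets passed in place of 163. The ratio rule gave 0 over all 9 pairs of arrays too. Of the partner genes, 0 passed without the block and 0 without the trend, in place of *CKS1*, where 5 and 0 of all probe sets passed. The partner count was 1 whichever replicate was left out. In the contrast of replicate 3 the 13 calls of 53 became 8 of 55 with no signal minimum, 3 of 53 without the trend and 8 of 52 with averaged probe sets. Over all probe sets the calls went from 6077 of 25045 to 4891 of 57258, 3140 of 25045 and 4731 of 22116 in these settings. The member calls were 11 to 18 when replicate 2 or 1 was left out, beside 5948 and 6325 over all probe sets. The cause was not tested.

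The members picked by smallest p, brightness in their family or replicate 3 difference were followed singly. Among these, leaving out 1 replicate pair turned the sign of 6 estimates near 0. Over the 3 omissions *MCM2* ranged from -0.13 to 0.049, *ORC1* from -0.23 to 0.15 and *CycT1;4* from -0.15 to 0.095. *CYCD3-2* ranged from -0.19 to 0.044, *KRP6* from -0.0126 to 0.097 and *CYCA2-1* from -0.17 to 0.093. Sign changes of other members are not in that count. Over all 53 genes the negative estimates went from 34 to 26 without replicate 1. Averaging probe sets moved *KRP6* to 0.48. Over the alternatives for named members, 276 values kept their direction and side of the threshold, 8 turned and 1 came to pass. Taking members by symbol alone gave no gene and was not run. Dim probe sets (*CYCF2-2*, *MCM8*) and 3 pools per genotype limit what can be seen.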
